A study of Homo sapiens with 2 samples.

Results

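The respiratory chain is the set of protein complexes in the inner mitochondrial membrane that passes electrons from NADH and succinate to oxygen and uses the resulting proton gradient to make ATP. Its subunits are encoded by 2 genomes: mitochondrial DNA holds 13 of the genes, and the nucleus holds the rest, as well as every subunit of complex II. The mRNAs of both genomes were compared in Ramos, a cell line derived from a Burkitt's lymphoma (a B-cell tumor), and in Ramos640, a line obtained from Ramos that resists complement-dependent killing by the anti-CD20 antibody rituximab. Members were chosen by gene name: the 13 mitochondrial mRNAs, the nuclear genes named NDUFA, NDUFB, NDUFC, NDUFS, NDUFV, UQCR, COX4 to COX8 and ATP5, and CYC1, SDHA, SDHB, SDHC and SDHD. After names of numbered pseudogenes were left out, 111 of the 37122 rows of the table were members. They comprised the 13 mitochondrial mRNAs, 81 nuclear structural subunits, 6 assembly factors of complex I, 6 further proteins with similar names, and 5 readthrough, antisense or pseudogene rows. In all, 103 members had at least 10 reads in the libraries together. Among the structural subunits 75 did, and the 6 that did not were isoforms of complex IV subunits found in particular tissues.

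Each line was measured in 1 RNA-seq library made from the total RNA of 3 passages pooled. Both lines were grown in RPMI medium with serum and antibiotics. Ramos640 was kept resistant by exposure, every 21 days, to 20% NHS (normal human serum, the source of complement in the study) together with rituximab, whose dose the labels give as 640 mg/mL and the methods of the study in μg/mL. Ramos had no such exposure, so the selection, the repeated exposure and the separate passage of the lines cannot be told apart. The libraries held 38030090 reads in Ramos and 30871826 reads in Ramos640, and 3 reads, taken as the floor of detection, were worth 0.0789 and 0.0972 CPM (counts per 1000000 reads). The B-cell markers CD79A, CD79B, PAX5, MS4A1 and CD22 were read in both libraries, from 1904 reads (MS4A1, which encodes CD20, in Ramos640) upwards, whereas markers of T cells, epithelial cells and monocytes had at most 31 reads each. A single library per line allows no test of the difference between the lines. Values are therefore log2 ratios (Ramos640 over Ramos) after scaling by size factors, here called fold changes, with exact 95% Clopper-Pearson intervals that cover counting error only. A gene past 1.5-fold in either direction is described as such, and 14.6% of all 18778 genes that had 10 or more reads were higher past this fold, while 17.3% were lower. Fewer molecules of an RNA per cell and a smaller share of cells that make it cannot be told apart in these bulk samples.

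Compared to Ramos, Ramos640 had a smaller share of reads from the mitochondrial mRNAs. The 13 mRNAs together took 1041292 reads (2.74% of the library) in Ramos and 621681 reads (2.01%) in Ramos640. After scaling by size factors the log2 fold change of their sum was -0.36 (interval -0.37 to -0.36). Of the 13, 9 were lower and 4 were higher, with a median of -0.15 beside -0.02 over all genes, and only COX2 was past 1.5-fold. The nuclear structural subunits together took nearly equal shares of the libraries, with 583856 reads (1.54%) in Ramos and 478039 reads (1.55%) in Ramos640, and their summed log2 fold change was 0.09 (interval 0.09 to 0.10). For each read of a nuclear structural subunit there were thus 1.78 reads of a mitochondrial mRNA in Ramos and 1.30 in Ramos640. Mitochondrial mRNAs made up 64.1% of the subunit reads in Ramos (exact binomial interval 63.9999 to 64.1474) and 56.5% in Ramos640 (56.4 to 56.6). The log2 change of the ratio was -0.46 (interval -0.46 to -0.45, from a normal approximation of the counting error). This ratio does not depend on the scaling of the libraries. It rested to a large part on few genes: without COX1 and COX2 the change was -0.24, without COX4I1 it was -0.37, and the difference between the median mitochondrial and the median nuclear member was -0.14.

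Mitochondrial DNA is transcribed from both strands into long precursors, which are cut at the tRNAs that lie between most of the genes. Neighboring mRNAs can share bases. ATP8 and ATP6, both subunits of ATP synthase, overlap by 46 bases, and ND4L and ND4, both subunits of complex I, by 7 bases. The overlaps, read from GRCh37 (plus strand), are shown because a read that falls in them fits either gene, and how the authors' counting treated such reads is not given in the sources used here. Capitals mark the start codon of the downstream gene and the stop codon of the upstream gene.
ATP8 and ATP6, chrM:8527-8572: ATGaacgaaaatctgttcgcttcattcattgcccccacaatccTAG
ND4L and ND4, chrM:10760-10766: ATGcTAA

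Per length, in reads per kilobase of transcript and per 1000000 reads of the library (RPKM), the 13 mRNAs spanned a 53.2-fold range in Ramos and a 28.1-fold range in Ramos640. COX2 (chrM:7586-8269) was highest in both libraries, at 10857 RPKM in Ramos and 6080 in Ramos640, and ND6, the only mRNA encoded on the opposite strand, was lowest in both, at 204 and 217. The order was thus kept at its ends while the range became narrower.

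The core of complex IV (cytochrome c oxidase), which hands electrons to oxygen, is built of the products of COX1, COX2 and COX3. All 3 mRNAs were lower in Ramos640. COX2 had 282423 reads in Ramos against 128393 in Ramos640 (-0.76, interval -0.77 to -0.75), or 1.69-fold fewer after scaling. It made up 27.1% of the mitochondrial mRNA reads in Ramos and 20.7% in Ramos640, so that a large part of the mitochondrial difference lay in this gene. COX1 had 285581 and 165078 reads (-0.41, interval -0.42 to -0.40) and kept almost the same share, 27.4% and 26.6%. COX3 had 103726 and 71556 reads (-0.15, interval -0.17 to -0.14).

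CYTB encodes cytochrome b, the mitochondrial subunit of complex III. It was the second lowest of the 13 by fold, with 61827 reads in Ramos and 33113 in Ramos640 (-0.52, interval -0.54 to -0.50).

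The 7 ND genes encode membrane subunits of complex I (NADH dehydrogenase), and they did not go 1 way. ND2 was the highest of all mitochondrial mRNAs by fold change, with 39676 reads in Ramos and 43179 in Ramos640 (0.50, interval 0.48 to 0.52). A nuclear copy of this gene, MTND2P28, was listed with 15807 and 14601 reads (0.27), and the reads of all nuclear copies of ND2 came to 36.8% of the reads of ND2 itself, the largest such share among the 13. ND6 had 4071 and 3510 reads (0.17, interval 0.10 to 0.23), and ND5 had 32691 and 25683 reads (0.03, interval 0.01 to 0.06). The other 4 were lower. ND3 had 21551 and 12459 reads (-0.41), ND4 had 73530 and 42634 reads (-0.41), ND1 had 53550 and 36147 reads (-0.19), and ND4L had 24879 and 18404 reads (-0.05, interval -0.08 to -0.03). ND4L and ND4, which share 1 mRNA, thus differed by more than their counting intervals. A gap of this size between rows is therefore not by itself a difference between mRNAs. The counting intervals do not cover it, and its cause was not tested. The gap between COX2 (-0.76) and COX1 (-0.41) was about as large, so the same limit holds for it. The summed fold change of the 13 mRNAs (-0.36) was also of about this size, and its interval does not cover such gaps. The 7 ND genes together came to a log2 fold change of -0.08.

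In ATP synthase (complex V), ATP8 was slightly higher, with 8238 and 7170 reads (0.18, interval 0.13 to 0.23), and ATP6 slightly lower, with 49549 and 34355 reads (-0.15, interval -0.17 to -0.13). These genes also share an mRNA and the bases printed above, so the limit given for ND4L and ND4 holds for them too. The plot of the 13 mRNAs in the order of the genes shows that high levels and low fold changes were found side by side along the molecule.

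**Figure D1:**
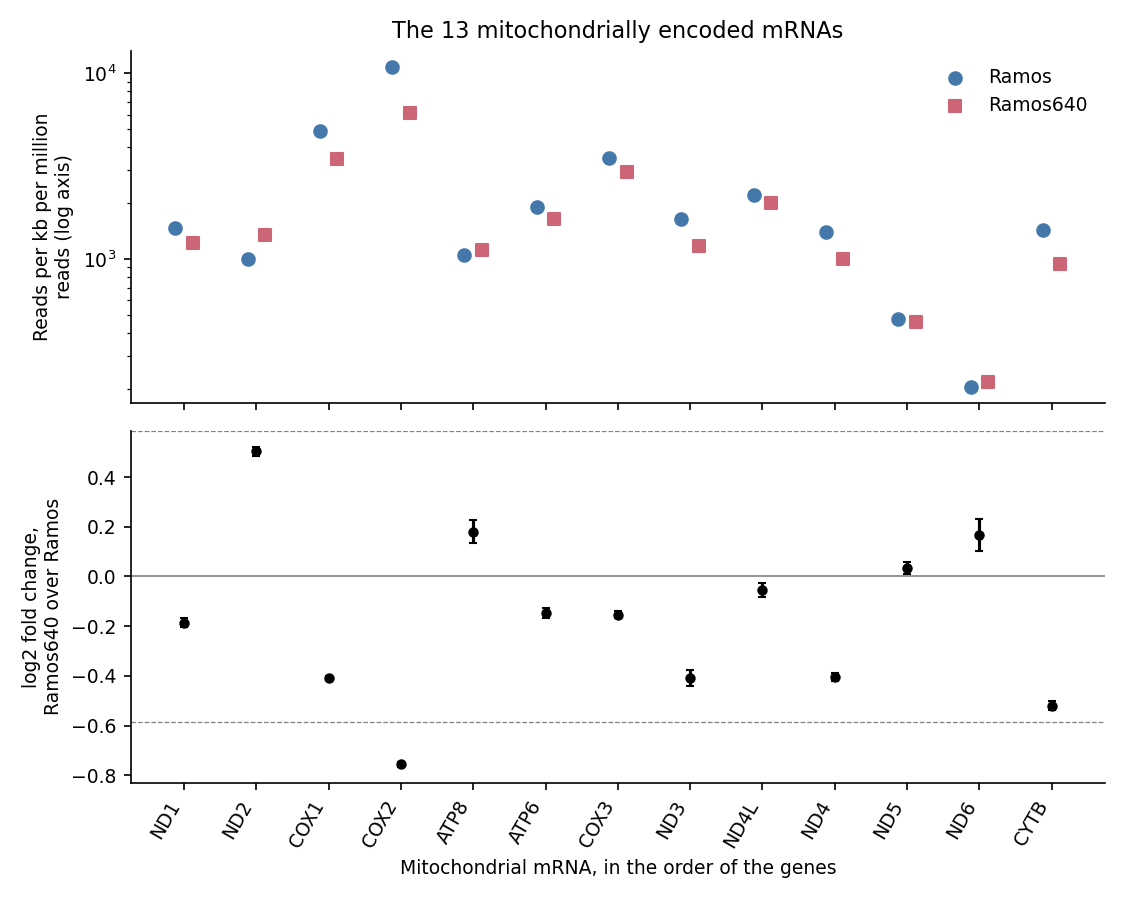
Upper panel: level of each mitochondrial mRNA in Ramos (circles) and Ramos640 (squares), in RPKM on a log axis. Lower panel: log2 fold change (Ramos640 over Ramos) after scaling by size factors, with exact 95% intervals (counting error only) and dashed lines at 1.5-fold. COX2 alone lies past a dashed line, at -0.76, and ND2 is the highest, at 0.50.

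The nuclear structural subunits had a median log2 fold change of -0.02 (quartiles -0.33 and 0.19), the same as over all genes to 2 decimals (quartiles -0.40 and 0.34). In numbers, 35 of the 75 with enough reads were higher and 40 lower. The counting interval lay above 0 for 28 and below 0 for 36, while all genes had intervals above 0 in 29.6% and below 0 in 31.6%. It included 0 for 11 subunits and for 7283 of all 18778 genes. Intervals are wider for genes with few reads, so these shares of subunits and of all genes are not directly comparable. Past 1.5-fold, 3 were higher (COX4I1, COX6A1 and NDUFA3) and 8 were lower (NDUFA5, NDUFA7, NDUFB1, NDUFB3, NDUFB5, NDUFA4, COX6C and ATP5E), beside the 14.6% and 17.3% of all genes. Both counts were smaller shares of the 75 than those percentages, which include many genes with few reads.

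**Figure D2:**
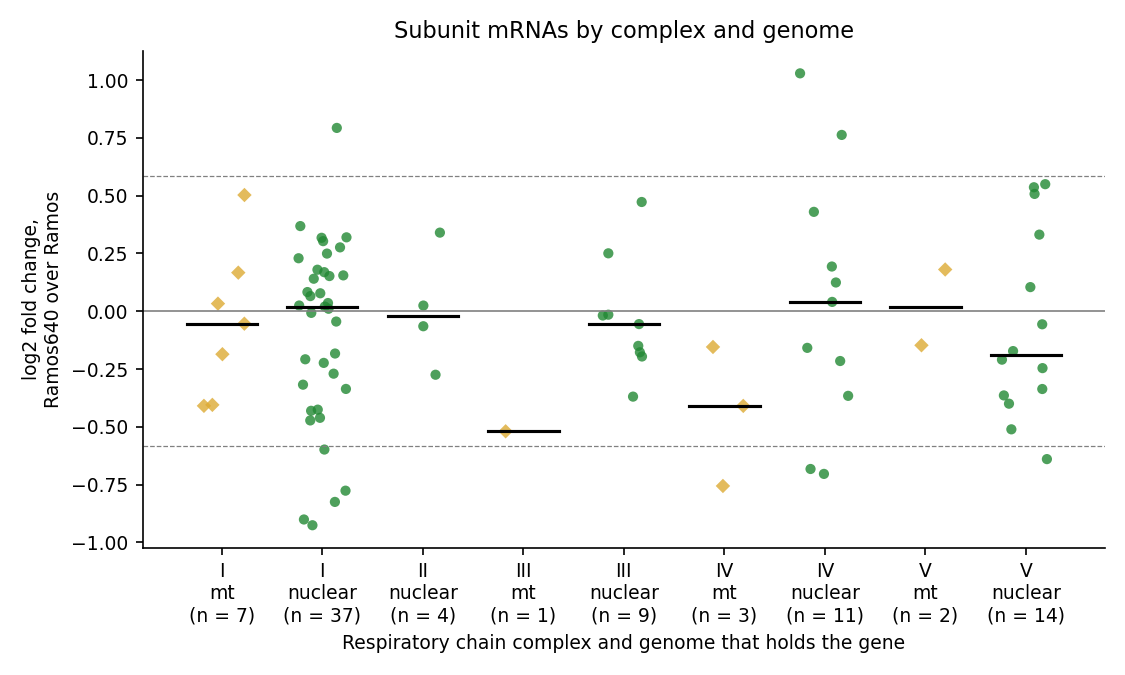
Log2 ratio of Ramos640 to Ramos for each subunit mRNA, by complex and by the genome that holds the gene (diamonds, mitochondrial; circles, nuclear structural subunits with at least 10 reads). Black bars are medians and dashed lines mark 1.5-fold. The mitochondrial mRNAs of complexes III and IV all lie below 0, whereas the nuclear medians lie between -0.19 (complex V) and 0.04 (complex IV).

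Complex I takes electrons from NADH. Its 37 nuclear structural subunits had a median of 0.02, with 20 higher and 17 lower, and their summed reads were almost level (-0.02). The 7 core subunits, which carry the flavin and the iron-sulfur clusters, were higher in 5 cases, with 0.15 as their median. NDUFS3 had 3995 reads in Ramos and 3961 in Ramos640 (0.37, interval 0.30 to 0.43), and NDUFS8 (0.28), NDUFV1 (0.25) and NDUFS7 (0.15) were higher by less. NDUFS1, the largest core subunit, was lower, with 3870 and 2545 reads (-0.22). NDUFV2 was the lowest core subunit, with 2993 and 1656 reads (-0.47, interval -0.56 to -0.39). Its pseudogene rows held as many reads as the gene (3047 and 1611), and gene and copies together gave -0.51. None of the 7 was past 1.5-fold.

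All 6 members of complex I past 1.5-fold were accessory subunits, which surround the core. NDUFA3 (chr19:54606036-54612564) was the only one higher, with 1817 reads in Ramos and 2419 in Ramos640 (0.79, interval 0.71 to 0.88). NDUFB11 and NDUFB2 followed, both at 0.32. NDUFA5 (chr7:123177051-123197958) was the lowest of all structural subunits, with 1627 reads in Ramos and 657 in Ramos640 (-0.93, interval -1.06 to -0.80), or 1.90-fold lower. NDUFA7 had 541 and 222 reads (-0.90, interval -1.14 to -0.68), and it overlaps the ribosomal protein gene RPS28 on the opposite strand. NDUFB1 had 2230 and 966 reads (-0.83), NDUFB3 had 3334 and 1494 reads (-0.78), and NDUFB5 had 7374 and 3739 reads (-0.60). The last lay just past the fold, at 1.51-fold lower. Subunits of the same membrane arm thus stood on both sides, since NDUFB2, NDUFB9 and NDUFB11 were higher and NDUFB1, NDUFB3 and NDUFB5 lower.

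The 6 assembly factors of complex I among the members, NDUFAF1 to NDUFAF6, help to put the complex together and are not part of it. They had a median of -0.29, with 5 lower and 1 higher, and none was past 1.5-fold. NDUFAF4 was the lowest, with 2939 and 1779 reads (-0.34), and NDUFAF3 the highest, with 3805 and 3024 reads (0.05, interval -0.02 to 0.12).

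Complex II, which oxidizes succinate and is also an enzyme of the tricarboxylic acid cycle, was level at its median (-0.02). SDHA, the flavin subunit, had 12149 reads in Ramos and 11811 in Ramos640 (0.34, interval 0.30 to 0.38). SDHC (0.02) and SDHB (-0.06), the latter an iron-sulfur subunit, were nearly level. SDHD, a membrane anchor, had 1850 and 1174 reads (-0.27, interval -0.38 to -0.17). Pseudogene rows held 22.1% as many reads as SDHA and 22.8% as many as SDHD, so that reads placed on a copy could move both values.

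In complex III (cytochrome bc1), 7 of 9 nuclear subunits were lower and the median was -0.06. The highest was CYC1, which encodes cytochrome c1, with 7037 reads in Ramos and 7500 in Ramos640 (0.47, interval 0.43 to 0.52). UQCRC1, a subunit with no electron carrier, was at 0.25 and its partner UQCRC2 at -0.06. UQCRFS1, the Rieske iron-sulfur protein, was at -0.20, UQCR10 was at -0.18, and UQCR11 was the lowest (-0.37), with 2090 and 1242 reads. CYC1 and the mitochondrial CYTB, the cytochromes of the complex, therefore stood on opposite sides of 0, 0.47 and -0.52.

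In complex IV the 11 nuclear subunits with at least 10 reads had a median of 0.04, while their summed reads were higher in Ramos640 by 0.37 on the log2 scale, and by 0.09 when COX4I1 was left out. COX4I1 (chr16:85832239-85840674), the ubiquitous form of the subunit at which ATP and ADP regulate the enzyme, was the highest of all members, with 35404 reads in Ramos and 55506 in Ramos640 (1.03, interval 1.01 to 1.05), or 2.04-fold higher. Per length it went from 1220 to 2356 RPKM. By this measure, which depends on the transcript length chosen, COX7A2 (1281 RPKM) lay slightly above it in Ramos. By reads COX4I1 was the highest nuclear subunit of the complex in both libraries, with COX7A2 at 22510 reads in Ramos. COX6A1 (chr12:120875893-120878540) had 15214 and 19829 reads (0.76, interval 0.73 to 0.79). Its pseudogene rows held 10780 and 9737 reads (0.23), which is 58.5% as many as the gene over both libraries, and gene and copies together gave 0.57, just under 1.5-fold. COX6B1, which links the partners of the dimeric enzyme, was at 0.43.

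Other nuclear subunits of complex IV were lower. NDUFA4, named for complex I but now placed in complex IV, had 9308 reads in Ramos and 4387 in Ramos640 (-0.70, interval -0.76 to -0.65), and its pseudogene rows were lower too (-0.90). COX6C had 5206 and 2490 reads (-0.68, interval -0.75 to -0.61), and COX7C had 12959 and 7720 reads (-0.37). COX5A (0.04) and COX5B (0.12), both on the matrix side, were nearly level, and COX7A2 was at 0.19. The ratio of mitochondrial to nuclear reads within complex IV went from 4.31 in Ramos to 2.37 in Ramos640, that is by -0.87 on the log2 scale, or by -0.59 without COX4I1. This was the largest change of any complex: that of complex III was -0.52, and those of complexes I and V were -0.06 and -0.04. The ratio was thus lower in complexes III and IV, and nearly level in complexes I and V. The value of complex III rests on a single mitochondrial mRNA, CYTB. In complex I the mitochondrial mRNAs ranged from -0.41 to 0.50, so that its level sum joins rows of both directions.

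**Figure D3:**
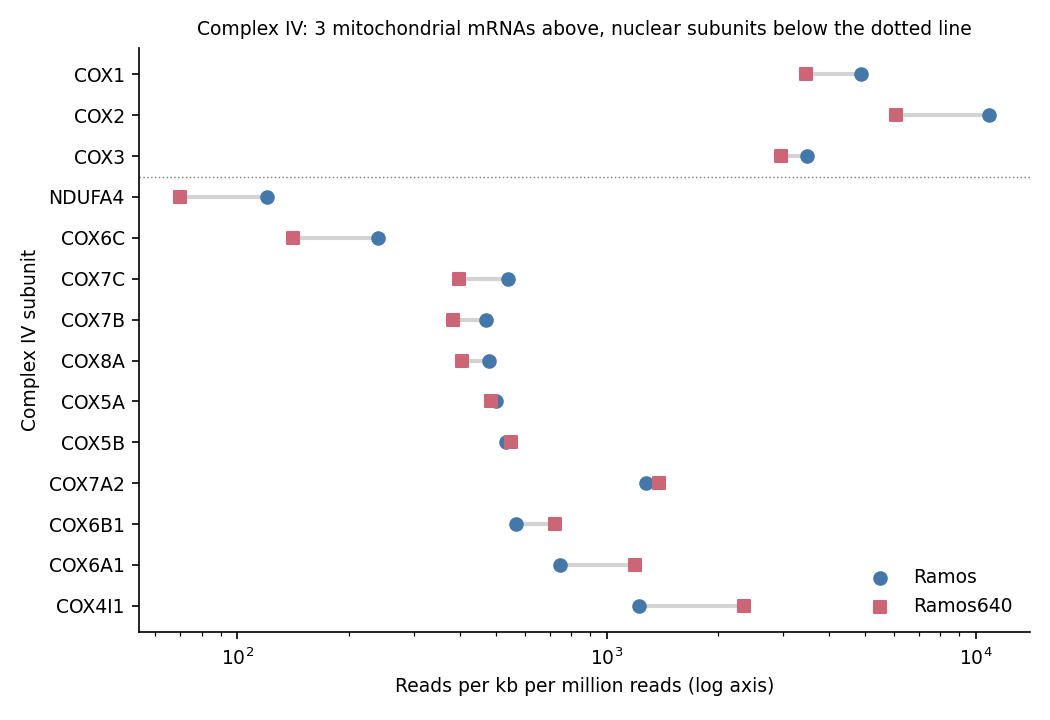
Level of each complex IV subunit mRNA in Ramos (circles) and Ramos640 (squares), in RPKM on a log axis, with the mitochondrial mRNAs above the dotted line and the nuclear subunits below it in order of fold change. COX1, COX2 and COX3 were all lower in Ramos640, while COX4I1 went from 1220 to 2356.

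Several complex IV subunits exist in isoforms for particular tissues, and these B-cell lines read almost only the ubiquitous forms. COX4I2 and COX6A2 had 0 reads in both libraries, which allows up to 0.0789 CPM in Ramos and 0.0972 in Ramos640. COX6B2, COX7A1, COX7B2 and COX8C had at most 3 reads in either library. In contrast, COX7A2L, a factor that joins complexes III and IV, had 6494 and 5399 reads (0.11), and NDUFA4L2, the hypoxia-induced relative of NDUFA4, had 234 and 128 reads (-0.49). COX7B was at -0.22 and COX8A at -0.16.

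Complex V makes ATP. Its 14 nuclear subunits had the lowest nuclear median, -0.19, with 9 lower and 5 higher. ATP5B, the catalytic beta subunit, was close to level, with 58960 reads in Ramos and 48674 in Ramos640 (0.10, interval 0.09 to 0.12). ATP5E, the small epsilon subunit of the central stalk, was the only one past 1.5-fold, with 5476 and 2698 reads (-0.64, interval -0.71 to -0.57). Pseudogene rows held 24.97% as many reads as ATP5E. ATP5D, the delta subunit beside it in the stalk, went the other way, with 1226 and 1339 reads (0.51, interval 0.40 to 0.62). ATP5I (-0.51) and ATP5O (-0.40) were the next lowest.

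The c-ring, through which protons flow, is built of a single protein that 3 genes encode. The genes differed in direction. ATP5G1 had 13826 and 15544 reads (0.55), ATP5G2 had 1524 and 1698 reads (0.54), and ATP5G3 had 28352 and 19318 reads (-0.17). As a share of the reads of all 3 genes, ATP5G3 went from 64.9% (exact binomial interval 64.4 to 65.3) to 52.8% (52.3 to 53.4), while ATP5G1 went from 31.6% (31.2 to 32.1) to 42.5% (42.01 to 43.03). The sum was nearly level (0.12).

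Among the remaining members, ATP5L2, a relative of the ATP synthase subunit gene ATP5L, had 363 and 126 reads (-1.14, interval -1.45 to -0.85). This was the lowest value of any member with at least 10 reads. ATP5L2 overlaps CYB5R3 on the same strand, so its reads could belong to either gene. ATP5S was at -0.57 and ATP5SL at 0.09. UQCRHL, which is nearly the same in sequence as UQCRH, had 2385 and 2471 reads (0.43), whereas UQCRH had 12351 and 9386 reads (-0.01), so that the split of reads between them is uncertain. Of the readthrough, antisense and pseudogene rows, NDUFC2-KCTD14 (0.35), NDUFB2-AS1 (0.19) and ATP5J2-PTCD1 (0.07) had at least 10 reads, and COX8BP and ATP5J2LP had fewer. Reads of these rows can belong to the genes they overlap. Of the subunits past 1.5-fold, NDUFA3, NDUFA7, NDUFB3, COX4I1, COX6C and ATP5E overlap a gene on the opposite strand.

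Fold changes of the nuclear subunits went with the GC content of the transcript. Of the 20 subunits below 45% GC, 0 were higher and the median was -0.26. Between 45% and 52% the median was 0.02, and at 52% or more 21 of 31 were higher and the median was 0.23. Over all genes the medians of the same classes were -0.21, -0.01 and 0.13, with 1551 of 4992 higher in the lowest class and 3970 of 6494 in the highest. Spearman's rho between GC content and log2 fold change was 0.56 over the 75 subunits and 0.39 over 10240 nuclear protein-coding genes with at least 100 reads, a description across genes of the same pair of libraries, in which genes are not independent replicates. When the trend over all genes was taken out, 2 of the 75 subunits were higher and 5 lower by more than 1.5-fold. The share of all genes past the fold after this step was not calculated, so these counts have no background beside them. COX4I1 kept 0.94, COX6A1 0.66, NDUFA7 -1.06, NDUFB1 -0.81 and COX6C -0.66, whereas NDUFA3 (0.58), NDUFB3 (-0.54), NDUFA4 (-0.43), NDUFB5 (-0.41) and ATP5E (-0.34) came to lie under the fold. NDUFA5, the least GC-rich of the 75, went from -0.93 to -0.59, just past it, and ATP5I was at -0.66. Among the mitochondrial mRNAs, ND2 went to 0.68 and COX2 to -0.71. What part base composition had in these differences was not tested.

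**Figure D4:**
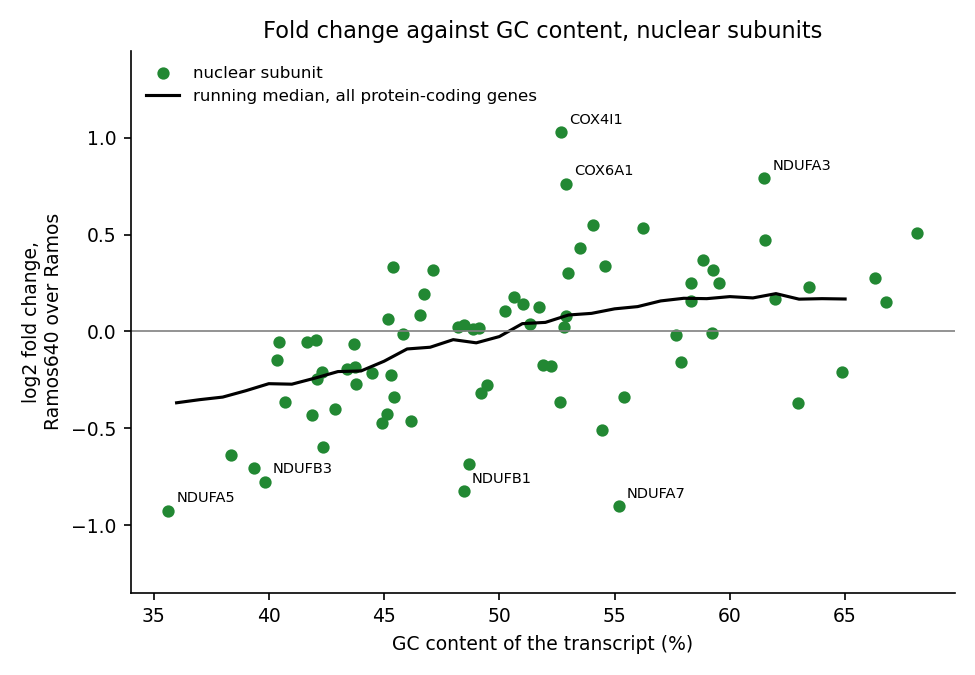
Log2 ratio of Ramos640 to Ramos against the GC content of the transcript for 75 nuclear structural subunits (points), with the running median of all nuclear protein-coding genes with at least 100 reads (line). Subunits below 45% GC lie under 0, and COX4I1, COX6A1, NDUFA7 and NDUFB1 lie far from the line.

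Nuclear respiratory genes share a small set of promoter elements, among them sites for NRF1 and for ETS factors such as GABP. The promoters of COX4I1, COX6A1 and NDUFA3, the structural subunits higher by more than 1.5-fold, and of NDUFA5, the lowest, are printed to show how these elements were spread among members at either end. They are the 250 bases before the gene start in RefSeq (GRCh38.p14), 5′ to 3′ on the strand of the gene, and capitals mark matches on either strand to the 12-base consensus of NRF1, to CCGGAAG (ETS) or to AAGATGG (YY1). For NDUFA5, RefSeq lists further starts, and the entry printed is the only one of them with a match.
COX4I1, chr16:85799445-85799694, plus strand: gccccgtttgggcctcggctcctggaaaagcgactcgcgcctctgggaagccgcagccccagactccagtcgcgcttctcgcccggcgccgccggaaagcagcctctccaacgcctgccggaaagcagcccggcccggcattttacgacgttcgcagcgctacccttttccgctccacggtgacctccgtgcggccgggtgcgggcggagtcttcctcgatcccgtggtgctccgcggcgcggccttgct
COX6A1, chr12:120437863-120438112, plus strand: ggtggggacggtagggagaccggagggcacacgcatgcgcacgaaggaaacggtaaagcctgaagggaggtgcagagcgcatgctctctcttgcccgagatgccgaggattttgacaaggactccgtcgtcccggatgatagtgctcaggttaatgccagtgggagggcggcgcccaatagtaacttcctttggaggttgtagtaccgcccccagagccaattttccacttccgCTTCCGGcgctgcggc
NDUFA3, chr19:54102605-54102854, plus strand: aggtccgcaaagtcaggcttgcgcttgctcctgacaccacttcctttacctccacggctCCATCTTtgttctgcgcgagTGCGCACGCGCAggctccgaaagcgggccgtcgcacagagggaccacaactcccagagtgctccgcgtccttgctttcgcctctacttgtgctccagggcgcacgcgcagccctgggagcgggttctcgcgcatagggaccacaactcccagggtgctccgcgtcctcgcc
NDUFA5, chr7:123557819-123558068, minus strand: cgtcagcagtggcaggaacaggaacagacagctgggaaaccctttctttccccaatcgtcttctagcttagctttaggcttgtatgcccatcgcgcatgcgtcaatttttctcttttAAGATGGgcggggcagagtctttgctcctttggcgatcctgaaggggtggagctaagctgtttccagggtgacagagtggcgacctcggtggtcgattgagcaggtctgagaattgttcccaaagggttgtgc
COX6A1 held an ETS match that began 16 bases before the start, and NDUFA3 held an NRF1 match at 171 bases and a YY1 match at 191 bases. NDUFA5 held a YY1 match at 133 bases, and COX4I1 held no exact match to any of the 3 motifs. Only exact matches were counted, so near matches, such as ccggaaa in the COX4I1 promoter, were left out. Promoters were matched for 61 of the 75 subunits, with 72 starts in all. Of these, 6.94% held the NRF1 motif, 23.6% the ETS motif and 8.33% the YY1 motif, beside 1.24%, 8.52% and 3.70% of all 35116 promoters of the same length. Any of the 3 was found in 31.9% of the 72 starts, beside 12.8% of all promoters. Counted by gene, with a match at any start of the gene, it was found in 7 of the 27 subunits that were higher. Among the 34 that were lower, it was found in 15. Among matched subunits past 1.5-fold, it was found in 2 of 3 higher and in 1 of 5 lower, the latter being NDUFA5. A match is a description of these letters and not of binding.

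Among the regulators themselves, GABPA, the DNA-binding subunit of GABP, had 1102 reads in Ramos and 565 in Ramos640 (-0.58, interval -0.73 to -0.44), just under 1.5-fold. YY1 was at -0.49 and NRF1 at -0.14, and the coactivators PPRC1 (0.57) and PPARGC1B (0.53) were higher in value. The list of 11 regulators had a median of -0.20, with 4 of 10 measured genes higher, 6 lower and 0 past 1.5-fold. PPARGC1A, the coactivator best known for raising respiratory genes in muscle and fat, had 0 and 4 reads.

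The genes that copy and express mitochondrial DNA were close to level at their medians. Of 16 genes of mitochondrial DNA transcription and replication (median -0.05), only TFB1M, an rRNA methyltransferase, was past 1.5-fold, with 1048 and 524 reads (-0.62). POLRMT, the mitochondrial RNA polymerase, was at 0.55 with 2261 and 2546 reads, and TFAM, which packages mitochondrial DNA and starts its transcription, was at -0.09. Of 21 genes of mitochondrial RNA processing and stability (median 0.07), 2 were higher past the fold and 1 was lower. REXO2, an exonuclease for very short RNAs, was at 0.74, HSD17B10 at 0.59, and KIAA0391, the nuclease of mitochondrial RNase P, at -0.76. HSD17B10 and TRMT10C (-0.49, under the fold) are subunits of the same RNase P. Of its parts, HSD17B10 was thus higher, and KIAA0391 and TRMT10C were lower. LRPPRC, which stabilizes mitochondrial mRNAs, was at -0.20 and its partner SLIRP at 0.11. The 76 mitochondrial ribosomal proteins had a median of 0.10, with 49 higher and 27 lower. MRPL54 (1.07) and MRPS26 (0.62) were higher past the fold and MRPL50 (-0.74) and MRPS36 (-0.62) lower.

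Of 40 assembly factors not covered by the gene names (median 0.01), 2 were higher and 5 lower by more than 1.5-fold. COX18, which inserts the tail of the COX2 protein into the membrane, was the lowest, with 375 and 134 reads (-1.10, interval -1.40 to -0.82). C6orf57 (-0.86), a complex II factor, and USMG5 (-0.68), an ATP synthase-associated protein, followed. PET100, a complex IV factor, was at 0.62 and MNF1, a complex III factor, at 0.60. Among 17 electron carriers and transporters (median 0.12), COQ4 was at 0.70 and COQ7 at -0.76, both needed to make coenzyme Q. CYCS, the cytochrome c that links complexes III and IV, had 10422 and 6418 reads (-0.32). In the tricarboxylic acid cycle, which feeds the chain, 12 of 19 genes were higher (median 0.11), with 2 higher and 2 lower past the fold. IDH3A, a subunit of the NAD-dependent isocitrate dehydrogenase, had 2813 and 3890 reads (0.85) and OGDH was at 0.62, whereas IDH2, the NADP-dependent enzyme, had 1725 and 828 reads (-0.68).

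Reads of the mitochondrial rRNAs, transcribed from the same strand as 12 of the mRNAs, were not lower, unlike those of most such mRNAs. Both rRNAs together took 1.52% of the reads in Ramos and 1.69% in Ramos640. The methods of the study do not say whether rRNA was removed before sequencing, so these values may not follow rRNA levels in the cells. RNR1 had 202016 reads in Ramos and 200832 in Ramos640 (0.37, interval 0.36 to 0.38), and RNR2 had 375057 and 320765 reads (0.16, interval 0.15 to 0.16). All 37 mitochondrially encoded rows together took 4.35% of the reads in Ramos and 3.80% in Ramos640. Of the 22 tRNA rows, all 8 on the strand opposite to most genes were lower, summed at -0.83 (-0.53 without TRNA), and the 14 on the other strand were 8 higher and 6 lower, with a median of 0.20. The sum of the 14 was 0.76 and rested on TRNF, without which it was 0.14. TRNF, at the head of the rRNA genes, had 3063 and 9576 reads (2.03), and TRNA had 5669 and 1011 reads (-2.11). Whether reads were counted by strand is not given in the sources used here, so that tRNA rows may hold reads of the precursors of either strand.

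**Figure D5:**
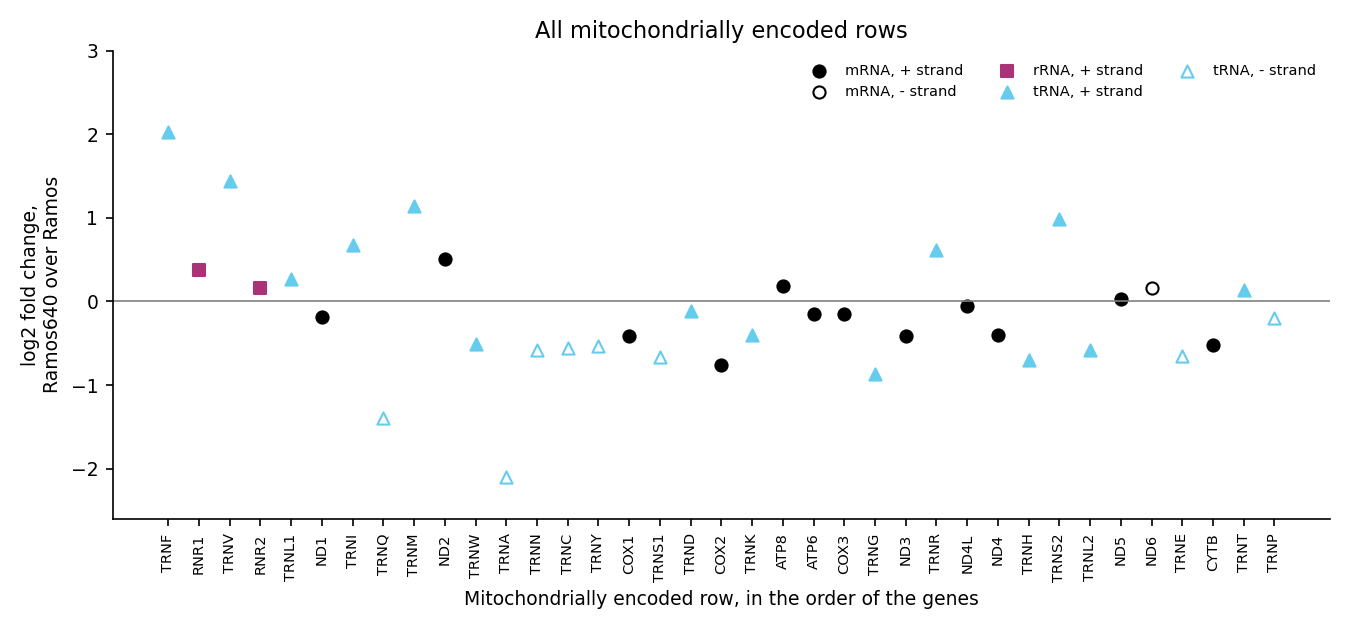
Log2 ratio of Ramos640 to Ramos for all 37 mitochondrially encoded rows in the order of the genes, with circles for mRNAs, squares for rRNAs, triangles for tRNAs, and open symbols for the minus strand. TRNF is the highest at 2.03 and TRNA the lowest at -2.11, and all open triangles lie below 0.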

How the data were processed

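Total RNA of 3 passages of each cell line was pooled, made into libraries with an Ion total RNA kit and sequenced on an Ion Proton. Per the methods and labels, the authors removed adaptors, aligned reads to GRCh37 with MapSplice 2.1.6 and deposited raw read counts per gene. The counting program, its annotation, its use of strand and its treatment of reads that fit several places are not given in the sources used here.

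Counts were scaled with median-of-ratios size factors (1.14 and 0.876). Fold changes used a pseudocount of 1, and genes with at least 10 reads in both libraries together were described. With 1 library per line no test was possible. Transcript length and GC content were those of the protein-coding transcript of median length in GENCODE release 44 on GRCh37, so RPKM here is computed from counts and these lengths. Fold changes in text and plots use size factors, and RPKM uses total reads.

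Genes were named by role, by passing 1.5-fold, as the 3 largest rises and falls per complex, or as isoform pairs; genes of other lists named under the fold were chosen after their values were seen. Members and lists were chosen with earlier results of these data known. Some genes are not reported here. Calculations used Python 3.11.15, scipy 1.17.1 and edgeR 4.0.16 (TMM) in R 4.3.3, and were tested on simulated data. Alternatives changed scaling, pseudocount, read minimum, GC and length trends, copies and members included.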

Additional observations from a re-analysis of the deposited data

How the results depend on the processing

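No paired analysis was possible because each line has 1 library, and no result rests on a test. Scaling shifted sums and medians without turning the direction of any. The summed mitochondrial mRNAs came to -0.37 with TMM factors, -0.44 with total counts and -0.45 with total counts without mitochondrially encoded rows, and the summed nuclear subunits to 0.0828, 0.0124 and 0.00406 in the same order. The mitochondrial median was -0.23 and -0.24 and the nuclear median -0.10 and -0.11 with these total counts, which shift the median of all genes by -0.08 and -0.09. The nuclear split of 35 higher and 40 lower became 27 and 48, then 26 and 49. With the GC trend removed the mitochondrial median was -0.11 and 5 nuclear subunits were lower by more than 1.5-fold, and with the length trend removed the median was -0.19. With at least 1 read, 5 nuclear subunits were higher past the fold. The share of all genes past the fold was not calculated for the GC trend or for this read minimum.

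Without ND6, ATP6, ATP8, ND4 and ND4L the mitochondrial sum was -0.39, the median -0.30 and the change of the ratio -0.48. With the reads of nuclear copies added, the sum was -0.35 and the change of the ratio -0.44, and with medians in place of sums the change was -0.14. Settings chosen after seeing the data left out COX1 and COX2 (sum -0.15, ratio -0.24) or COX4I1 (nuclear sum 0.00479, ratio -0.37), and TRNF or TRNA from the tRNA sums. The causes of these shifts were not tested beyond the members or scaling each setting changes. Of 57 alternative values, 33 stayed within the counting interval or within 1.5 times the count, and 24 moved. For a median, the interval was that of the member at the median. No sum, median or ratio changed sign under these settings, and the counts of members have no direction. For the 13 members past 1.5-fold, 65 alternative values under the scalings and trends included 5 that came under the fold, all with the GC trend removed, and 0 that changed direction. The depth gives narrow counting intervals, and the spread between cultures of a line is unknown.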

Other observations

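Along the plus strand of the mitochondrial DNA the rows up to ND2 and the rows after it differed in direction. Of the 9 rows from TRNF to ND2, 8 were higher in Ramos640 (median 0.50), with ND1 as the exception at -0.19. Of the 19 rows after ND2, 14 were lower and 5 higher (median -0.40). The place of the split was chosen after the values were seen, and it was not tested. The rows up to ND2 include both rRNAs, to which the limit on rRNA removal given above applies.

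The nuclear copies with most reads had the same sign as the genes they resemble, but for several of them the counting interval included 0. MTND2P28 had 15807 reads in Ramos and 14601 in Ramos640 (0.27, beside 0.50 for ND2). MTND1P23 had 5359 and 3994 reads (-0.04, interval -0.10 to 0.02, beside -0.19 for ND1). MTND4P12 had 1929 and 1402 reads (-0.08, interval -0.18 to 0.02, beside -0.41 for ND4). MTND5P11 had 383 and 329 reads (0.16, interval -0.06 to 0.38, beside 0.03 for ND5). MTCO1P2 had 382 and 160 reads (-0.87, beside -0.41 for COX1), and MTCO2P2 had 392 and 151 reads (-0.99, beside -0.76 for COX2). MTCO1P3, with few reads (8 and 22), went the other way from COX1, at 1.70. Of the 153 rows of such copies, 15 had at least 10 reads. How many of these reads come from mitochondrial RNA was not tested.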
